A study of Coprinopsis cinerea with 29 samples.

Results

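In the mushroom Coprinopsis cinerea, 92 of the 12003 gene models in the deposited expression table (0.766%) stood well above every other stage and tissue in the stipe of the mature fruiting body. They were chosen by that pattern alone. The level was log2(RPKM + 1), where RPKM is the read count divided by the length of the gene model and by the scaled size of the library. In the deposited values a model with 0 reads in a library still has an RPKM above 0, so the lowest values are a floor. The median over the mature stipe libraries had to be at least 3, which is 7 RPKM, and at least 2 above the median of each of the other 8 groups, which is 4-fold on this scale. Every contrast with the mature stipe was therefore used in the choice, and its values are given as a description with no test. Tests were kept to differences among the other 8 groups, which the rule bounds from above but does not otherwise use.

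The study followed fruiting by sequencing polyadenylated RNA of 29 libraries from strain #326 (A43mut B43mut pab 1-1), in which both mating-type factors are mutated. The groups were FB_S (mature stipe, n = 3), FB_CL (mature cap together with lamellae, n = 3), YFB_S, YFB_C and YFB_L (stipe, cap and lamellae of the young fruiting body, n = 3 each), P2 and P1 (primordia of stage 2 and stage 1, n = 4 each), H (secondary hyphal knots, n = 3) and VM (vegetative mycelium, n = 3). All groups shared this strain and the medium YMG/T, with growth at 37 °C in the dark for 5 days before the move to 25 °C and a cycle of 12 h light and 12 h dark for fruiting. The series calls the replicates biological, but the labels do not say which cultures or fruiting bodies they came from, so p-values measure the spread between these libraries.

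The stipe is the stalk that carries the cap. In Coprinopsis cinerea it lengthens fast and late, mainly by elongation of cells that already exist, and the walls of its hyphae are built of chitin and glucans that are remodelled as the cells extend. The mature cap meanwhile sheds its spores and digests itself, while the stipe is left standing for a short time. The gene models are known here by number only. None of the identifiers (0 matches) was found in a reference table of 13657 genes from another strain, so no gene name, role or sequence is attached to them and no tissue marker could be checked.

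Libraries held 10736371 to 32199674 reads, with a median of 20227323. Across all models, 2 libraries stood apart from their own groups: YFB_L replicate 1, whose best correlation with another library of its group was 0.885, and YFB_C replicate 3, at 0.929. The 3 FB_S libraries lay close together, between 0.981 and 0.986. Of the 29 libraries, 3 were run on a second flow cell, namely the fourth replicates of H, P1 and P2. Results are given with and without the 2 libraries that stood apart where they moved a count or a direction in these contrasts.

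The members took a large share of the mature stipe transcriptome. Of all reads, they held 11.1% ± 0.279 in FB_S (SD, n = 3), between 10.7% and 11.2%. In FB_CL the share was 0.751% ± 0.117, and in YFB_S it was 0.711% ± 0.147 (SD, n = 3 each). The highest share outside FB_S was that of YFB_C, at 1.45% ± 0.775, and its top value of 2.34% came from YFB_C replicate 3, against 0.933% and 1.08% in the other two. In YFB_L the library that stood apart had 0.774%, against 0.328% and 0.301% in the other two. The groups before the young fruiting body averaged between 0.667% in VM and 0.827% in H. These are bulk samples, so fewer cells of a type and less RNA per cell cannot be told apart.

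**Figure D1:**
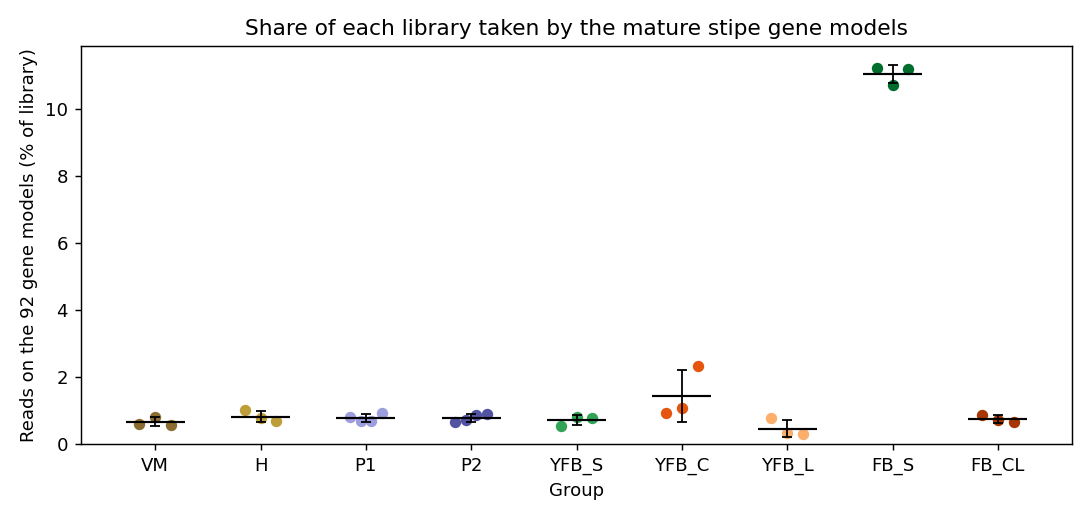
Share of each library's reads (percent, vertical axis) placed on the 92 gene models, by group, with points for libraries and bars for the mean ± SD. The 3 FB_S libraries sit between 10.7% and 11.2%, and the highest of the other 26 libraries is YFB_C replicate 3 at 2.34%.

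A few models carried much of that share. Model 56944 alone took 1.10% of FB_S reads, which was 9.94% of the reads of all members. The 5 members with the most reads took 38.2% of member reads in FB_S, and the 10 with the most took 60.8%. Ranked by RPKM over all models of the table, members filled 4 of the first 10 places in FB_S, 8 of the first 50 and 43 of the first 500. They were thus spread from the most abundant transcripts down to about the middle of the table. Their FB_S medians ran from 9.93 to 18832 RPKM, against a median of 12.5 RPKM over all models in FB_S.

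The middle of the set showed the same contrast. The median member had 335 RPKM in FB_S, with quartiles of 78.5 and 904 RPKM. It had 27.9 RPKM in FB_CL, 14.6 in YFB_S, 11.4 in YFB_C, 4.39 in YFB_L, 12.7 in P2, 14.1 in P1, 16.8 in H and 7.84 in VM. Over all models of the table the group median lay between 12.5 and 16.3 RPKM. Outside FB_S the typical member was therefore an ordinary transcript, somewhat above the median of all models in FB_CL and below it in YFB_L and VM.

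**Figure D2:**
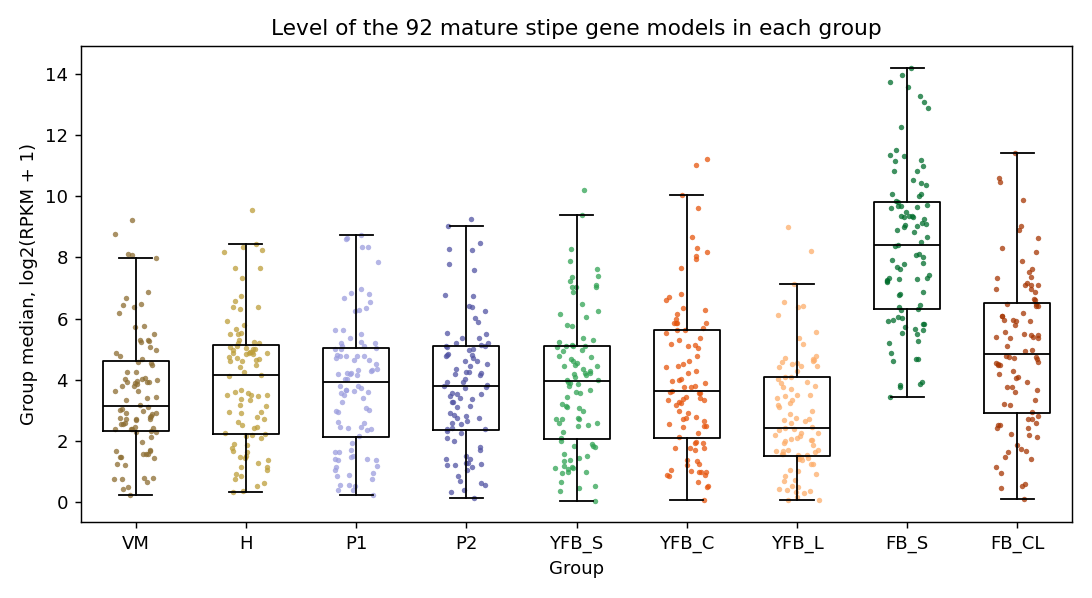
Group medians of the 92 members as log2(RPKM + 1) (vertical axis) in the 9 groups, with points for members and boxes for the median and quartiles, whiskers reaching to 1.5 times the interquartile range. The FB_S box lies above the others with a median of 8.39, against 4.85 in FB_CL and 2.43 in YFB_L.

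Most members were not silent elsewhere. The highest of the other 8 group medians was at least 5 on the log2(RPKM + 1) scale for 54 of 92 members (58.7%). It was below 1, that is below 1 RPKM, for 2 members, 483348 and 438192. The same rule applied to the young stipe found 29 models, of which 16 (55.2%) had such a high next group, and applied to FB_CL it found 356 models, of which 153 (43.0%) did. Model 483348 had 8.35, 23.0 and 13.2 RPKM in FB_S, against 0.0201 to 1.63 RPKM in the other 26 libraries. Each of its FB_S values lay above all of the others.

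The member with the highest level was 362776. It had 17594, 29018 and 18832 RPKM in FB_S, against 4333, 2736 and 2745 RPKM in FB_CL. In YFB_S it had 2.59, 0.999 and 6.84 RPKM, and in YFB_C it had 159, 263 and 1549 RPKM. The libraries of the mature stipe lay above those of the mature cap without overlap, and the young stipe libraries were among the lowest of the series. In YFB_L the values were 832, 1.98 and 0.790 RPKM, and the high one was the library that stood apart. The earlier groups lay between these extremes. Their values were 12.2, 50.4, 112 and 167 RPKM in P2, 61.2, 15.7, 8.62 and 253 RPKM in P1, 138, 45.2 and 42.7 RPKM in H, and 35.0, 13.9 and 18.1 RPKM in VM.

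Model 56944, the second in level, was far steadier. It had 15822, 15729 and 15965 RPKM in FB_S, against 1824, 1425 and 1226 RPKM in FB_CL. In YFB_S it had 421, 667 and 693 RPKM, and in VM 279.8, 229 and 249.9 RPKM. Its lowest value over the other 26 libraries was 226 RPKM and its highest 1824 RPKM, so it was an abundant transcript in every group.

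The widest margins over the next group belonged to 496246 and 530826. Model 496246 had 886, 761 and 795 RPKM in FB_S, against 4.54, 6.52 and 5.04 RPKM in FB_CL. Its next highest group was P1, with 17.6, 21.2, 14.5 and 23.9 RPKM, and the margin was 5.30 on the log2(RPKM + 1) scale. The mature cap and the mycelium, with 5.51, 5.14 and 6.25 RPKM in VM, were its lowest groups, and both mature parts thus stood at opposite ends of its range. In between, it had 6.28, 14.3 and 20.4 RPKM in YFB_S, 13.2, 14.6 and 27.3 RPKM in YFB_C and 3.28, 12.0 and 13.7 RPKM in YFB_L. Model 530826 had 2342, 4563 and 2021 RPKM in FB_S, against 60.4, 66.6 and 56.9 RPKM in FB_CL, the next highest group by median, a margin of 5.26. A single library, YFB_C replicate 3, reached 219 RPKM, while the other two of its group had 41.2 and 48.5 RPKM.

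**Figure D3:**
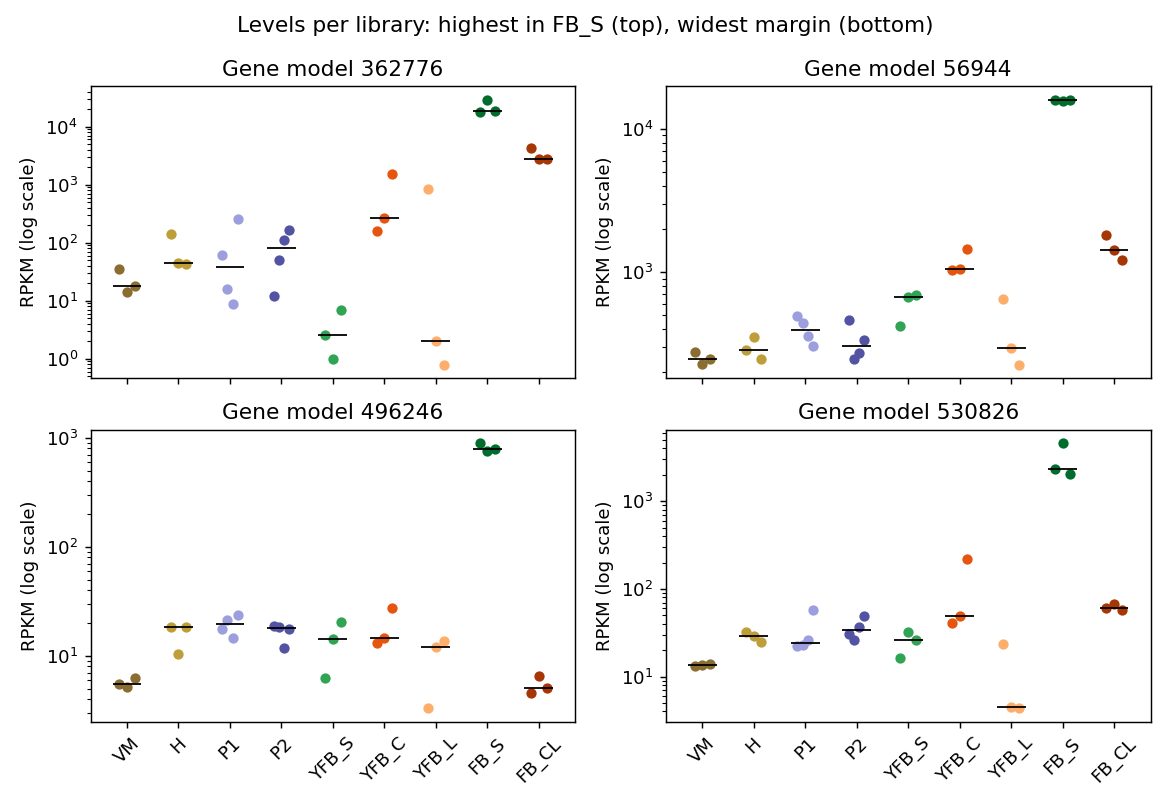
RPKM on a log scale (vertical axis) of 4 members in each library by group, with lines at group medians. FB_S lies above every other library in all 4 panels, and 362776 has its low points in YFB_S and YFB_L while 56944 does not fall below 226 RPKM.

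Margins over the whole set ran from 2.00 to 5.30 with a median of 2.66. Lowering the required margin to 1 would have kept 428 models and raising it to 3 would have kept 31; 11 models had a margin of at least 4 and 4 had one of at least 5. The level threshold removed no model that met the margin. Just inside the margin, 425912 had 35.8, 39.1 and 29.5 RPKM in FB_S, against 8.05, 9.68 and 8.18 RPKM in YFB_S, its next group. Also inside, 361313 had 114, 175 and 146 RPKM in FB_S, against 45.5, 35.3 and 35.3 RPKM in YFB_C.

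Just outside stood 471053, with 60.3, 55.9 and 49.2 RPKM in FB_S, against 13.3, 7.19 and 13.3 RPKM in FB_CL. Model 378699 was also just outside, with 53.6, 61.1 and 72.5 RPKM in FB_S, against 10.9, 15.5 and 14.7 RPKM in FB_CL. The models on both sides of the line thus had much the same pattern, with 3 FB_S libraries above those of the next group. The member with the lowest level was 438192, with 3.94, 9.93 and 14.0 RPKM in FB_S, against 1.01, 0.829 and 0.915 RPKM in YFB_S.

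For 83 of the 92 members, the lowest FB_S library lay above all 26 other libraries. Over all 12003 models this held for 6.71%, and because the rule used this contrast nothing is read from the difference. In the other 9 members at least 1 library outside FB_S reached the lowest FB_S value. YFB_L replicate 1 did so in 4 of them and YFB_C replicate 3 in 2. For 264038, 493695 and 377556 such a library lay above every FB_S library. Model 264038 had 646 RPKM in YFB_L replicate 1, against 544, 520 and 335 RPKM in FB_S. Model 493695 had 145 RPKM there, against 34.7, 61.9 and 51.8 RPKM in FB_S. Model 377556 had 8825 RPKM in YFB_C replicate 3, against 8807, 8276 and 8622 RPKM in FB_S. For 448517, FB_CL replicate 1 had 504 RPKM, against 495, 1465 and 540 RPKM in FB_S. For 499062, FB_S had 13442, 4225 and 12226 RPKM, against 1791, 2348 and 10300.5 RPKM in YFB_C, and the overlap came from YFB_C replicate 3 alone.

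The spread of the members among the FB_S libraries is a description, since the rule used these values. The SD of log2(RPKM + 1) over the 3 libraries had a median of 0.349, against 0.228 over the 7303 models that reached the same level in FB_S. The 3 libraries lay within 2-fold of each other for 65 members. The most variable was 255209, with 86.4, 8.39 and 167 RPKM in FB_S, against 2.33, 12.6 and 1.31 RPKM in FB_CL. Its FB_S replicate 2 lay at or below 7 of the 26 other libraries, so its place in the set rests on the other 2 FB_S libraries.

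Outside the mature stipe the members did not follow a single pattern. The group with the second highest median was FB_CL for 37 members (40.2%), YFB_C for 17, YFB_S for 16, VM for 9, P1 and P2 for 4 each, H for 3 and YFB_L for 2. Among 1643 models of the same minimum level that were also highest in FB_S but by less than 2, FB_CL was second for 44.8%, YFB_S for 18.3% and YFB_C for 10.5%. The mature cap was thus the commonest next group in both sets, and the young stipe was next for 17.4% of the members.

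The lowest group was YFB_L for 39 members (42.4%) and VM for 21 (22.8%). Among the 1643 models highest in FB_S by less than 2, YFB_L was lowest for 26.0% and VM for 22.9%. Without the mature stipe, the distance between the highest and the lowest group median had a median of 2.51 over the members, against 2.25 over all models, and it ran from 0.707 to 9.85. It was at least 4 in 25 members (27.2%), against 17.0% of all models, and below 2 in 27 members (29.3%), against 42.2% of all models. The members thus ranged from those with less than 4-fold between these 8 groups, which include the mature cap, to those with far more.

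**Figure D4:**
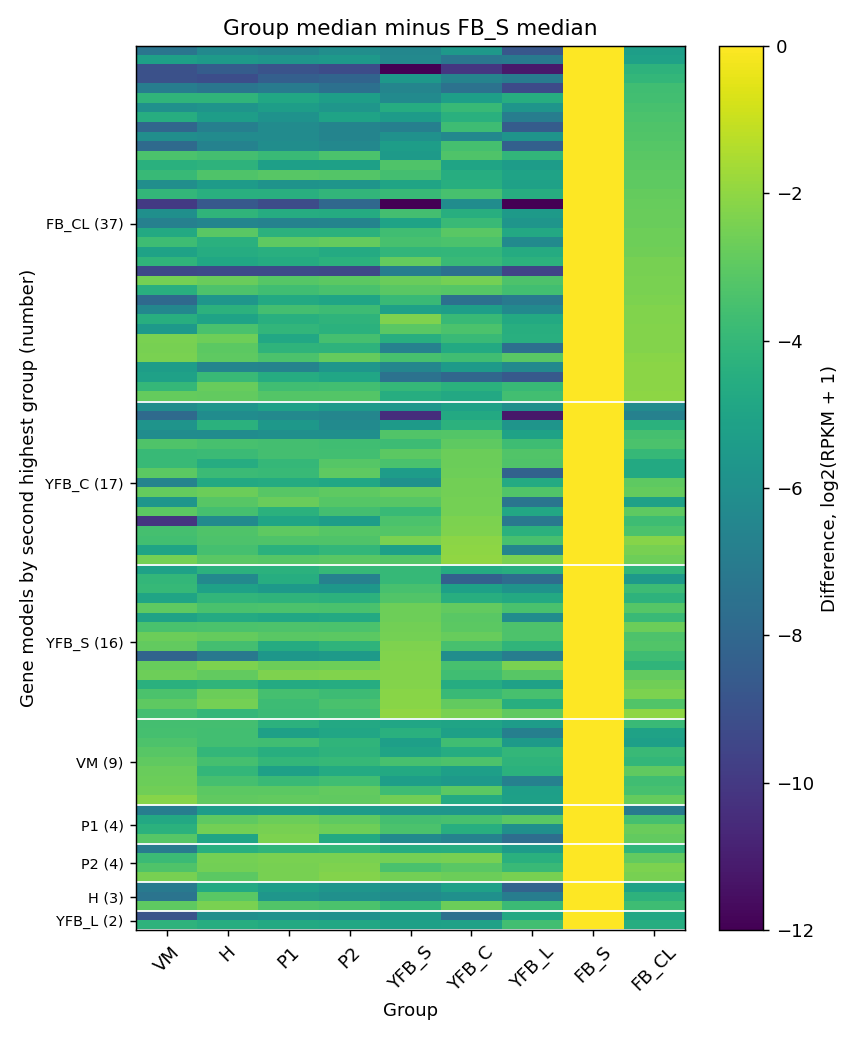
Difference of each group median from the FB_S median on the log2(RPKM + 1) scale (colour) for the 92 members (rows), gathered by the group with the second highest median. The block of 37 members with FB_CL second is the largest, followed by 17 with YFB_C and 16 with YFB_S, and the darkest cells fall mainly in YFB_L and YFB_S.

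Each of the larger classes is shown by its member of highest FB_S level. For the class with FB_CL second this was 362776, given above, and for the class with YFB_C second it was 499062. Model 499062 had 1791, 2348 and 10300.5 RPKM in YFB_C, against 11.8, 9.94 and 9.70 RPKM in VM, and stood between 143 and 1541 RPKM in each library of H, P1, P2 and YFB_S. For the class with YFB_S second it was 469449, with 650.4, 939 and 823 RPKM in FB_S, 168, 473 and 147 RPKM in YFB_S, and 61.0, 83.6 and 48.8 RPKM in FB_CL. Both stipes lay above all other groups by median in this model, and the single high value of 144 RPKM in YFB_L came from replicate 1.

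Pairs of members were weakly correlated. Over the 26 libraries outside FB_S, Pearson's r of log2(RPKM + 1) had a median of 0.179 over 4186 pairs. It was above 0.5 in 18.1% of pairs and below 0 in 30.4%. These pairs share libraries and depth, and the values are a description. No value for pairs of other models stands beside them, so weak correlation is not shown to be particular to the members.

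In length the members were like the rest, with a median of 1326 bases and quartiles of 854 and 2100, against a median of 1315 bases for the table. Nearly all of their reads were placed on 1 model only, with 81 members at 100%. Below 99% were 448517 at 79.3%, 432576 at 92.9%, 199151 at 96.0% and 264038 at 97.6%, a share of 4.35% against 3.78% of the table. Values of those 4 are uncertain, because reads shared with a near-identical copy may be split between them. The libraries were made with an unstranded kit, so reads of overlapping models on opposite strands could not be told apart either.

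The contrasts among the other 8 groups ask where the members stood before and beside the mature stipe. They were tested on counts with edgeR's quasi-likelihood test over 11990 models, with a call where p after Benjamini-Hochberg adjustment was under 0.05 and the change at least 2-fold. All 92 members passed the filter on low counts, and all 92 also passed it when the FB_S libraries were left out. There were 6 contrasts, and several share libraries: 3 use YFB_S, 2 use FB_CL, 2 use YFB_C and 2 use YFB_L, so their counts are not independent. In none of the 6 were 10085, 255209, 358498, 441913, 443942 and 459905 called. The share of all models called in none was not computed, so nothing is read from these members.

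At the first step of fruiting, in hyphal knots set against mycelium, calls among the members ran mostly upward. In H against VM, 22 members (23.9%) were called higher and 3 (3.26%) lower. Over all models tested, 11.0% were called higher and 8.98% lower. The median log2 change was 0.24 over the members and -0.02 over all models. The rises ran from 1.03 to 4.30 on the log2 scale, and the falls from -1.35 to -1.19. On the first flow cell alone, 20 were called higher and 1 lower, and without YFB_C replicate 3 and YFB_L replicate 1, which enter the shared spread, 26 were higher and 6 lower.

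The largest rise was that of 499062, with 158, 319 and 143 RPKM in H, against 11.8, 9.94 and 9.70 RPKM in VM. All 3 knot libraries lay far above the mycelium, and the log2 change was 4.30 ± 0.83 (SE, with an adjusted p of 0.000552 in edgeR). Model 496242 had 6.73, 6.46 and 24.4 RPKM in H, against 0.872, 0.426 and 0.688 RPKM in VM, a log2 change of 4.29 ± 0.77 (edgeR adjusted p = 0.000278). Its groups did not overlap, and the change was 3.36 without H replicate 4, the library on the second flow cell. The falls were small. Model 446770 had 30.3, 43.3 and 16.6 RPKM in H, against 52.8, 124 and 53.2 RPKM in VM, and 425912 had 1.24, 1.34 and 1.03 RPKM in H, against 2.01, 4.25 and 1.90 RPKM in VM. Their log2 changes of -1.35 ± 0.46 (edgeR adjusted p = 0.0328) and -1.19 ± 0.29 (adjusted p = 0.00374) both lost their call without VM replicate 2, which left 1 member called lower. The call of 446770 was also lost without H replicate 2 (adjusted p = 0.0668) and without H replicate 4 (adjusted p = 0.136). Both calls were lost in a fit to H and VM alone, that of 446770 also with flow cell as a covariate, and that of 425912 with limma on log2(RPKM + 1).

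Between the young stipe and the stage 2 primordium, calls among the members went in both directions, with more higher than lower. Over all models more were lower than higher. In YFB_S against P2, 23 members (25.0%) were called higher and 11 (12.0%) lower, against 17.8% and 21.1% of all models. The median log2 change was -0.04 over the members and 0.00 over all models. Rises ran from 1.03 to 3.95 and falls from -4.65 to -1.13 on the log2 scale. With scaling by library size alone, which moved the median of all models by -0.496, 15 members (16.3%) were higher and 24 (26.1%) lower, against 9.64% and 32.1% of all models. Without YFB_S replicate 2, 13 members (14.1%) were called higher and 6 (6.52%) lower, against 14.9% and 16.0% of all models. Without YFB_S replicate 1, 24 (26.1%) were higher and 6 (6.52%) lower, against 17.0% and 19.2%. Without YFB_C replicate 3 and YFB_L replicate 1 together, 23 (25.0%) were higher and 14 (15.2%) lower, against 18.6% and 22.6%. On the first flow cell alone, 20 (21.7%) were higher and 11 (12.0%) lower, against 17.0% and 20.6%.

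Model 469449 had 168, 473 and 147 RPKM in YFB_S, against 18.9, 17.2, 19.8 and 12.3 RPKM in P2. The groups lay well apart, a log2 change of 3.95 ± 0.80 (edgeR adjusted p = 0.000281), or 3.21 without YFB_S replicate 2. Model 464652 had 29.3, 108 and 26.5 RPKM in YFB_S, against 4.93, 5.30, 3.62 and 2.86 RPKM in P2, a log2 change of 3.71 ± 0.53 (edgeR adjusted p = 5.49e-06), or 2.74 without YFB_S replicate 2. In the mature stipe this model had 1495, 1057 and 1479.5 RPKM. Both of the largest falls were in models that were low in the young stipe. Model 362776 had 2.59, 0.999 and 6.84 RPKM in YFB_S, against 12.2, 50.4, 112 and 167 RPKM in P2, a log2 change of -4.65 ± 1.65 (edgeR adjusted p = 0.0218). That call was lost without YFB_S replicate 1 (adjusted p = 0.0726) or YFB_S replicate 2 (adjusted p = 0.0885), and without YFB_S replicate 3 the change was -5.57. Model 443459 had 0.232, 0.283 and 0.744 RPKM in YFB_S, against 1.99, 3.48, 10.5 and 5.26 RPKM in P2, a log2 change of -3.79 ± 0.75 (edgeR adjusted p = 0.000216). Without YFB_S replicate 3 it was -4.45.

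Within the young fruiting body, more members were lower in the stipe than in the cap. In YFB_S against YFB_C, 16 members (17.4%) were called higher and 23 (25.0%) lower, against 15.1% and 17.5% of all models. The median log2 change was -0.45 over the members and 0.04 over all models. This balance changed most when YFB_C replicate 3, one of the libraries that stood apart, was left out. It also depended on the method. With limma on log2(RPKM + 1), 17 (18.5%) were higher and 17 (18.5%) lower, against 12.7% and 14.5% of all models. With limma on log2(RPKM + 0.1), 17 (18.5%) were higher and 21 (22.8%) lower, against 15.7% and 16.5%. Without it, 17 were called higher and 9 lower, and without it and YFB_L replicate 1 together, 18 were called higher and 12 lower. Without YFB_S replicate 1, 17 were higher and 16 lower. Without YFB_C replicate 1, 15.2% of members were called higher, against 15.8% of all models. With library size alone, which moved the median of all models by 0.401, 19 members (20.7%) were higher and 17 (18.5%) lower, against 24.8% and 11.9% of all models.

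Model 443107 had 0.881, 1.91 and 0.986 RPKM in YFB_S, against 0.107, 0.0256 and 0.0614 RPKM in YFB_C. It was low in both tissues without overlap, a log2 change of 4.69 ± 0.87 (edgeR adjusted p = 0.000144), or 5.56 without YFB_C replicate 1. These values came from 40, 62 and 25 reads in YFB_S and 2, 0 and 1 in YFB_C, so the size of the change is uncertain. Model 469449 had 168, 473 and 147 RPKM in YFB_S, against 7.72, 10.9 and 18.3 RPKM in YFB_C, a log2 change of 4.42 ± 0.92 (edgeR adjusted p = 0.000521), or 3.68 without YFB_S replicate 2. The young cap held far more of both models with the largest falls. Model 362776 had 2.59, 0.999 and 6.84 RPKM in YFB_S, against 159, 263 and 1549 RPKM in YFB_C, a log2 change of -7.59 ± 1.91 (edgeR adjusted p = 0.00278), -5.96 without YFB_C replicate 3 and -8.52 without YFB_S replicate 3. Model 440784 had 3.08, 4.55 and 33.7 RPKM in YFB_S, against 288, 900.2 and 116 RPKM in YFB_C, a log2 change of -4.98 ± 1.10 (edgeR adjusted p = 0.000924). Leaving out YFB_C replicate 2 gave -3.88 and leaving out YFB_S replicate 3 gave -6.83. In the mature stipe 440784 reached 11865, 6826 and 7609.6 RPKM.

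Against the young lamellae the direction was upward. In YFB_S against YFB_L, 38 members (41.3%) were called higher and 10 (10.9%) lower, against 18.1% and 23.4% of all models. The median log2 change was 0.98 over the members and -0.03 over all models. With library size alone, which moved the median of all models by -0.243, 38 members (41.3%) were higher and 11 (12.0%) lower, against 14.1% and 27.5% of all models. Without YFB_L replicate 1, the library that stood apart, 48 (52.2%) were called higher and 5 (5.43%) lower, against 21.6% and 20.9% of all models. With YFB_C replicate 3 left out as well, 49 (53.3%) were higher and 5 (5.43%) lower, against 22.2% and 21.6%. Without YFB_S replicate 2, 32 (34.8%) were higher and 6 (6.52%) lower, against 15.8% and 20.3%.

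Model 367507 had 36.5, 28.3 and 43.5 RPKM in YFB_S, against 1.79, 0.765 and 1.08 RPKM in YFB_L, a log2 change of 4.91 ± 0.40 (edgeR adjusted p = 2.38e-09). It was also between 26.0 and 86.5 RPKM in each library of H, P1, P2 and YFB_C. Its levels were lower in FB_CL (14.3, 8.29 and 8.18 RPKM) and VM (6.74, 5.47 and 4.41 RPKM), and lowest in YFB_L. Model 469306 had 4.80, 5.53 and 1.71 RPKM in YFB_S, against 0.320, 0.121 and 0.0316 RPKM in YFB_L, a log2 change of 4.94 ± 0.94 (edgeR adjusted p = 0.000143). It was 6.40 without YFB_L replicate 1 and 4.33 without YFB_L replicate 3. Its reads in YFB_L were 4, 1 and 0, so the size of the change is uncertain. The largest falls came from 1 library. Model 362776 had 2.59, 0.999 and 6.84 RPKM in YFB_S, against 832, 1.98 and 0.790 RPKM in YFB_L, a fitted log2 change of -6.35 ± 1.81 (edgeR adjusted p = 0.00526). Model 493695 had 1.00, 0.955 and 1.21 RPKM in YFB_S, against 145, 1.62 and 1.11 RPKM in YFB_L, a fitted log2 change of -5.61 ± 1.30 (edgeR adjusted p = 0.000983). Without YFB_L replicate 1 these were 1.33 (adjusted p = 0.387) and -0.39 (adjusted p = 0.711), and neither was called. Both calls were also lost in a fit to YFB_S and YFB_L alone and with limma; without YFB_S replicate 3 the change of 362776 was -7.28.

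In the mature cap with lamellae, more members were called higher than lower against the young cap. FB_CL holds cap and lamellae while YFB_C is cap alone, so maturity and tissue cannot be told apart in this contrast. In FB_CL against YFB_C, 27 members (29.3%) were called higher and 15 (16.3%) lower, against 23.1% and 25.0% of all models. The median log2 change was 0.42 over the members and -0.09 over all models. Without YFB_C replicate 1, 20 members (21.7%) were called higher, against 22.1% of all models. Without YFB_C replicate 3, 36 (39.1%) were called higher and 7 (7.61%) lower, against 24.4% and 24.8% of all models. Without FB_CL replicate 2, 25 (27.2%) were higher and 6 (6.52%) lower, against 22.6% and 23.7%. Without YFB_C replicate 3 and YFB_L replicate 1 together, 40 (43.5%) were higher and 10 (10.9%) lower, against 25.7% and 25.4%. Leaving out FB_CL replicate 3 gave 27 (29.3%) higher and 10 (10.9%) lower, against 22.4% and 22.8%. With library size alone, which moved the median of all models by -0.695, 19 members (20.7%) were higher and 25 (27.2%) lower, against 13.9% and 40.6% of all models.

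Model 448517 had 504, 122 and 125 RPKM in FB_CL, against 1.03, 1.07 and 7.43 RPKM in YFB_C, a log2 change of 6.30 ± 1.08 (edgeR adjusted p = 2.58e-05). It was 7.94 without YFB_C replicate 3 and 5.28 without FB_CL replicate 1, and it is one of the models that share reads. Model 443107 had 3.91, 3.56 and 2.62 RPKM in FB_CL, against 0.107, 0.0256 and 0.0614 RPKM in YFB_C, a log2 change of 6.11 ± 0.84 (edgeR adjusted p = 1.49e-06), or 6.98 without YFB_C replicate 1. Its YFB_C values came from 2, 0 and 1 reads, so the size of this change is uncertain too. Both FB_CL and YFB_C were nonetheless far below the mature stipe for 443107, which had 165, 159 and 126 RPKM in FB_S. Among the falls, 440784 had 71.1, 46.0 and 79.3 RPKM in FB_CL, against 288, 900.2 and 116 RPKM in YFB_C, a log2 change of -2.73 ± 0.995 (edgeR adjusted p = 0.0220). Its call was lost without YFB_C replicate 2 (-1.63, adjusted p = 0.177), without FB_CL replicate 1 (adjusted p = 0.0545) or without FB_CL replicate 2 (adjusted p = 0.0756). Model 499062 had 614, 932 and 980.4 RPKM in FB_CL, against 1791, 2348 and 10300.5 RPKM in YFB_C. Its log2 change was -2.52 ± 0.76 (edgeR adjusted p = 0.00692), and -1.29 without YFB_C replicate 3 (adjusted p = 0.126).

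The share called higher was largest for the mature cap with lamellae against the young lamellae. Maturity and tissue cannot be told apart in this contrast either. In FB_CL against YFB_L, 54 members (58.7%) were called higher and 3 (3.26%) lower, against 24.6% and 29.0% of all models. The median log2 change was 1.69 over the members and -0.12 over all models, and rises ran from 1.10 to 9.01. Without YFB_L replicate 1, 63 (68.5%) were called higher and 2 (2.17%) lower, against 28.3% and 27.5% of all models. With YFB_C replicate 3 left out as well, 66 (71.7%) were higher and 2 (2.17%) lower, against 28.7% and 27.8%. Without FB_CL replicate 3, 1 (1.09%) was lower, against 27.2%. Lower calls numbered 5 (5.43%) without YFB_L replicate 2, against 28.4%, and 5 (5.43%) without YFB_L replicate 3, against 28.2%. With library size alone, which moved the median of all models by -1.35, 29 members (31.5%) were called higher and 14 (15.2%) lower, against 10.9% and 57.6% of all models.

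**Figure D5:**
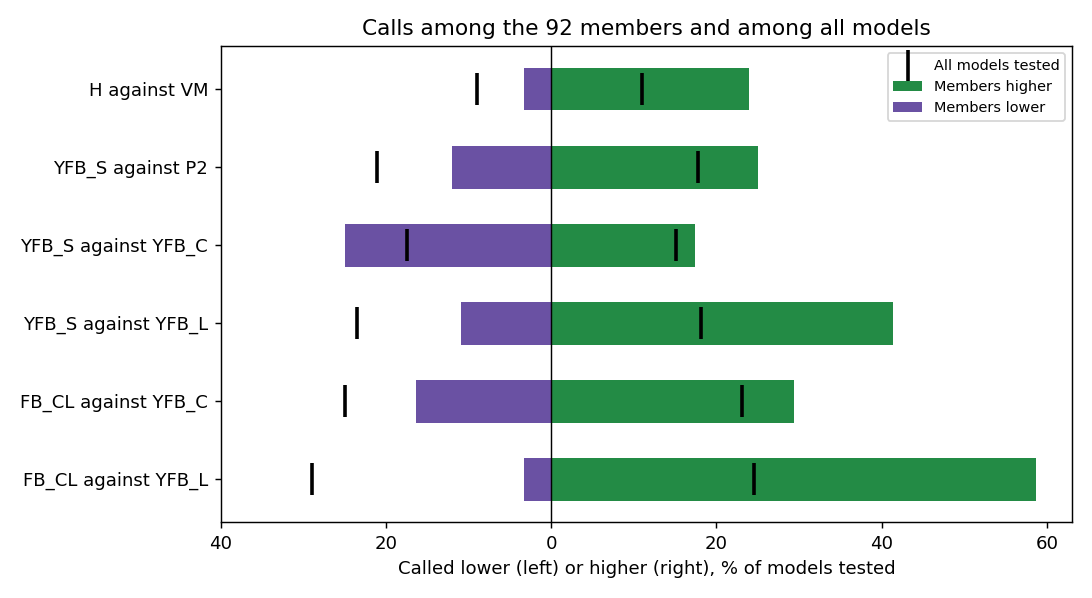
Members called higher (right) or lower (left) in each of 6 contrasts among the groups other than FB_S, in percent of the 92 members (horizontal axis), with black ticks for all 11990 models tested. The green bars reach past the ticks, farthest in FB_CL against YFB_L with 58.7% against 24.6%, and least in YFB_S against YFB_C with 17.4% against 15.1%. In YFB_S against P2, YFB_S against YFB_C and FB_CL against YFB_C the green bar fell short of its tick when 1 library was left out, and in YFB_S against YFB_C also with library size alone.

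Model 421612 had 454, 189 and 197 RPKM in FB_CL, against 1.66, 0.145 and 0.431 RPKM in YFB_L, a log2 change of 8.58 ± 0.97 (edgeR adjusted p = 6.95e-08), or 9.95 without YFB_L replicate 1. It was also abundant in the mature stipe, with 919.8, 1822 and 1072 RPKM in FB_S, and stayed between 0.419 and 1.10 RPKM in each library of VM, H, P1 and P2. Both mature parts thus lay above all earlier groups for this model. Model 448517 had 504, 122 and 125 RPKM in FB_CL, against 1.06, 0.327 and 0.105 RPKM in YFB_L, a log2 change of 9.01 ± 1.23 (edgeR adjusted p = 1.08e-06). It was 10.32 without YFB_L replicate 1 and 7.99 without FB_CL replicate 1, and it shared reads as stated above. Reads in YFB_L were few for both models, with 32, 2 and 9 for 421612 and 31, 8 and 3 for 448517.

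Of the 3 falls in this contrast, 2 turned on the library that stood apart. Model 493695 had 6.13, 5.98 and 3.61 RPKM in FB_CL, against 145, 1.62 and 1.11 RPKM in YFB_L, a fitted log2 change of -3.27 ± 1.16 (edgeR adjusted p = 0.0172). Model 264038 had 40.1, 55.2 and 40.5 RPKM in FB_CL, against 646, 21.8 and 18.9 RPKM in YFB_L, a fitted log2 change of -2.34 ± 0.85 (edgeR adjusted p = 0.0191). Without YFB_L replicate 1 both turned round, to 1.95 and 1.16. The fall of 264038 was also lost without FB_CL replicate 1 (adjusted p = 0.0578) or FB_CL replicate 3 (adjusted p = 0.0581), and that of 493695 without FB_CL replicate 3 (adjusted p = 0.0612). Neither was called in a fit to FB_CL and YFB_L alone or with limma, and DESeq2 gave no adjusted p for 264038. The other fall, 375847, had 7.25, 5.33 and 5.65 RPKM in FB_CL, against 17.6, 20.7 and 23.1 RPKM in YFB_L, without overlap, and its log2 change was -1.75 ± 0.30 (edgeR adjusted p = 2.3e-05). In the mature stipe it had 131, 107 and 116 RPKM.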

How the data were processed

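The authors deposited, for each of 29 libraries, total read counts and TPM of every gene model, per the file headers, and a series table of log2 RPKM for 12003 models. The submitters' processing notes name R 3.0.2, edgeR 3.4.2 and limma 3.18.13; the mapper is not given in the sources used here, and the genome build of the models is not given either. The table's scaling was that of TMM factors computed here, with library medians within 0.00301 on the log2 scale. Libraries were made with an unstranded TruSeq v2 kit, per the labels' protocols.

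The deposited log2 RPKM values were turned into log2(RPKM + 1) for levels and the choice of members; the members, the contrasts and the rule for named models were chosen with earlier results of these data known. Counts were tested with edgeR 4.0.16 in R 4.3.3 (filterByExpr, TMM, 1 quasi-likelihood fit over all 29 libraries with a coefficient per group, Benjamini-Hochberg adjustment over 11990 models, 0.05 and 2-fold). Standard errors are the log2 change divided by the square root of F, an approximation. The edgeR steps were also run on simulated counts with known changes in FB_CL against YFB_C alone. Far fewer models were changed there than were called in these data, so nothing is read from it. Models named were the 2 of highest FB_S level, the 2 of widest margin, those next to the thresholds, the highest of each class of second group with at least 10 members, and in each contrast the 2 largest called rises and falls with at least 1 RPKM in the higher group. Any other model named was picked after its values were seen. Alternatives were DESeq2 1.42.0, limma 3.58.1 on the deposited values with a pseudocount of 1 or 0.1, other scalings, no filter, the deposited TPM for membership, flow cell or replicate number as a covariate, and each library left out. Leaving out both libraries that stood apart, and the first flow cell alone in the contrasts, were added after seeing the data. Replicates differed by more than sampling noise, with chi-square per degree of freedom between 24.2 and 979, so none was taken as a copy.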

Additional observations from a re-analysis of the deposited data

Results flagged for a closer look

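In groups of 4 libraries, 1 library lay far from the other 3 in 6 of 50 sets of values of the named models. The cut-off gives about 1 in 20 for independent, normally distributed values. These models share libraries and many were picked for large changes, so that rate need not hold here and nothing is read from the difference. Model 530826 had 57.4 RPKM in P1 replicate 4, against 22.2 to 25.8 RPKM in the other P1 libraries. In the same library, 443459 had 8.78 RPKM, against 2.17 to 3.14 RPKM, and 471053, just outside the set, had 1.51 RPKM, against 0.585 to 0.711 RPKM. Model 440784 had 329.8 RPKM in P2 replicate 4, against 60.1 to 93.9 RPKM in the other P2 libraries. P1 replicate 4 and P2 replicate 4 are on the second flow cell, whose part in these values was not tested. Model 448517, which shares reads, had 93.9 RPKM in P1 replicate 3, against 11.0 to 22.6 RPKM. Model 496246 had 11.7 RPKM in P2 replicate 3, against 17.7 to 18.6 RPKM.

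A model outside the deposited RPKM table met the same rule when RPKM was computed from counts. Model 479833, of 429 bases, had a median of 15.4 RPKM in FB_S, from 93, 54 and 84 reads. The other 26 libraries held 34 of its reads in all, at most 5 in any, and reached 0.952 RPKM. Its margin was 3.16 on the log2(RPKM + 1) scale.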

How the results depend on the processing

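The set of 92 became 103 models with a pseudocount of 0.1 (92 shared), 92 with group means (80 shared), 69 with library size alone (54 shared), 80 from the deposited TPM (61 shared), 92 with TMM over every model (90 shared) and 91 on the first flow cell (91 shared). A margin of 1 gave 428 and a margin of 3 gave 31. Leaving out each library gave 86 to 102. Leaving out libraries in turn gave, higher and lower, 17 to 21 and 1 to 4 for H against VM, 13 to 24 and 6 to 13 for YFB_S against P2, 13 to 17 and 9 to 25 for YFB_S against YFB_C, 32 to 48 and 5 to 14 for YFB_S against YFB_L, 20 to 36 and 6 to 13 for FB_CL against YFB_C, and 48 to 63 and 1 to 5 for FB_CL against YFB_L. Library size alone gave 15 higher and 24 lower for YFB_S against P2, 25 lower for FB_CL against YFB_C, and 29 higher and 14 lower for FB_CL against YFB_L. Fits to only the 2 groups compared gave 0 lower for H against VM in edgeR (8 at an unadjusted p under 0.05, and 4 by DESeq2 and 2 and 4 by limma over all groups), 17 lower for YFB_S against P2, 25 higher and 5 lower for YFB_S against YFB_L, and 1 lower for FB_CL against YFB_L. For H against VM the first flow cell alone left 1 lower, and without YFB_C replicate 3 and YFB_L replicate 1 together 6 were lower. Leaving out these 2 gave 12 lower for YFB_S against YFB_C and 5 lower for YFB_S against YFB_L. On log2(RPKM + 1) and log2(RPKM + 0.1), limma gave 4 and 6 lower for YFB_S against YFB_L and 1 lower for FB_CL against YFB_L with both. Under the replicate block, 1 was lower in FB_CL against YFB_L and the other counts stayed within 1.5 times. The replicate numbers do not pair the samples: same-numbered libraries deviated with correlations of -0.297 to 0.396, and 7 of 30 were closest to their own number. Without YFB_L replicate 1, alone or with YFB_C replicate 3 also left out, 3 fitted falls reversed: 362776 in YFB_S against YFB_L to 1.33, and in FB_CL against YFB_L 493695 to 1.95 and 264038 to 1.16; leaving out each library in turn, their lowest values were -7.28, -3.84 and -2.88. Except where a library left out is named, the cause of these changes was not tested. The shares called over all models moved under these settings as well, so the counts alone do not compare members with other models. Depth limits the models of few reads.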
